A study of Mus musculus with 2 samples.

Results

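The Mir183 cluster is a group of 3 neighbouring miRNA genes, Mir183, Mir96 and Mir182, and all 3 were found by their Ensembl identifiers among the 1973 miRNA genes counted in mouse facial prominence. The facial prominences are the swellings of the embryonic head from which nose, lips, jaws and palate form. The material was tissue of the B6NCrl strain at embryonic day 13.5, healthy, untreated as far as the labels say, and pooled from male and female embryos, with libraries made from the RNA fraction under 30 bases. The 2 libraries are biological replicates 1 and 2 of the same group. They give levels and how far these differ between replicates, and they compare no treatments or genotypes. The pooling of embryos means that variation between single embryos was not measured.

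The 3 genes are cut from shared primary transcripts as hairpins, each of which Dicer trims to a 5p and a 3p mature arm. The 5p arms are the forms usually loaded into Argonaute, where the seed, bases 2 to 8 from the 5′ end, selects target mRNAs. The cluster is known for its strong expression in sensory cells of vertebrates, among them hair cells of the inner ear, photoreceptors, olfactory sensory cells and sensory neurons of ganglia. Changes in the seed of miR-96 cause hearing loss in humans and mice. The cluster is also known outside the sense organs, for example in activated lymphocytes and in many carcinomas, where the transcription factor FOXO1 is among its targets.

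The mature 5p arms are shown because the genes differ in them by few bases at the seed. Sequences are from RefSeq (GRCm38.p6), which held all 3 genes, and capitals mark the seed.
mmu-miR-183-5p: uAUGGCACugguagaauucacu
mmu-miR-96-5p: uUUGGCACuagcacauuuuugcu
mmu-miR-182-5p: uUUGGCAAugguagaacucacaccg

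Counted from 1 at the 5′ end, miR-96-5p and miR-183-5p differed within the seed by U2A alone, and miR-182-5p and miR-96-5p by A8C alone. The seeds of miR-182-5p and miR-183-5p differed by both U2A and A8C. Bases 2 to 7 were thus shared by miR-96-5p and miR-182-5p and not by miR-183-5p. Over the whole arm the likeness ran the other way, and miR-182-5p and miR-183-5p were identical at 18 of 22 positions when laid side by side without gaps, against 13 of 22 for miR-96-5p and miR-183-5p and 12 of 23 for miR-182-5p and miR-96-5p.

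The hairpins are given because the counts are per hairpin gene, so the level of each gene takes in both arms and the arms could not be told apart. Capitals mark the 5p and the 3p arm.
Mir183 hairpin: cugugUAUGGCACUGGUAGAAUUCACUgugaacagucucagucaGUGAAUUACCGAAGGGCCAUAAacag
Mir96 hairpin: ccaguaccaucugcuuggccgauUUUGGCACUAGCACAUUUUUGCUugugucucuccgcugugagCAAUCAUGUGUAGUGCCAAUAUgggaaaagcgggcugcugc
Mir182 hairpin: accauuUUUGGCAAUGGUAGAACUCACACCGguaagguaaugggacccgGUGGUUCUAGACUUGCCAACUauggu

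All 3 hairpins lie on the minus strand of chromosome 6 (GRCm38), so the order of transcription is Mir183 (30169668 to 30169737), Mir96 (30169446 to 30169551) and Mir182 (30165918 to 30165992). Mir183 and Mir96 are separated by 116 bases, whereas Mir96 and Mir182 are 3453 bases apart, and the whole cluster spans 3820 bases. GENCODE release M21 places no other gene over this span, so the hairpins are intergenic. The nearest gene upstream is Rncr4, a long noncoding RNA gene that starts 3155 bases away on the opposite strand, and the nearest on the other side is Nrf1, which ends 12459 bases away. Hairpin lengths were 70 bases for Mir183, 106 for Mir96 and 75 for Mir182, with GC contents of 45.7%, 50.9% and 48.0%, against a median of 50.5% over 313 tested genes with a RefSeq hairpin. The predicted folding energy per base was -0.37 kcal/mol for Mir183, -0.45 for Mir96 and -0.40 for Mir182, and the median of those 313 genes was -0.44 kcal/mol.

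The 3 genes could be counted cleanly, because reads that matched several loci form a class of their own in the files and no mature sequence of the 3 genes was shared with another gene in the RefSeq table. The longest run of bases common to any pair of the 3 hairpins was 8. Of the 327 tested genes with a mature sequence in that table, 45 did share one with another gene, and their levels leave out reads placed at several loci. Ranks of Mir183, Mir96 and Mir182 are therefore upper placements relative to such genes. Library totals on miRNA genes were 4562135 counts in replicate 1 and 5771249 in replicate 2, and levels are counts per 1000000 counts of these totals (CPM). How evenly the libraries captured different miRNAs was not measured. Levels of different genes therefore compare counts, which need not follow numbers of molecules. As a look at the labelled tissue, the epithelial list of 7 genes held 6.34 ± 0.0162% of counts and the mesenchyme and cartilage list of 8 genes 6.85 ± 0.349% (SD, n = 2), but these lists do not mark facial tissue alone. In the mesenchyme list, the pair of Mir214 and Mir199a-2 holds at least 1 gene that shares a mature sequence in the RefSeq table. The share of that list is therefore an undercount, and the likeness of the 2 shares does not show equal signals.

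Mir183 and Mir182 were abundant miRNA genes of the facial prominence with nearly the same level, and Mir96 stood lower but well above most genes. Mir183 had 42548 counts in replicate 1 and 59009 in replicate 2, which are 9326 and 10225 CPM. Mir182 had 41543 and 58747 counts, or 9106 and 10179 CPM. Mir96 had 13804 and 21896 counts, or 3026 and 3794 CPM. In both libraries the order was Mir183, Mir182, Mir96, and all 3 genes were higher in replicate 2.

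The means were 9775 ± 635 CPM for Mir183, 9643 ± 759 CPM for Mir182 and 3410 ± 543 CPM for Mir96 (SD, n = 2 each). Mir183 took rank 23 of all genes by mean level, Mir182 rank 26 and Mir96 rank 54. Per library the ranks were 25 and 23 for Mir183, 27 and 25 for Mir182, and 57 and 50 for Mir96. The tested genes were the 360 that reached 10 counts in each library; 93.6% of them had a lower level than Mir183 and 85% a lower level than Mir96, and the median of the 360 was 113 CPM. Together the 3 genes held 2.15% of all gene counts in replicate 1 (95% Wilson interval 2.13 to 2.16) and 2.42% in replicate 2 (2.41 to 2.43), a mean of 2.28 ± 0.194% (SD, n = 2). Wilson and Clopper-Pearson intervals cover counting error only, since PCR copies were not marked by molecular identifiers. The 2 intervals do not overlap, so the libraries differed in the share of the cluster by more than counting error.

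**Figure D1:**
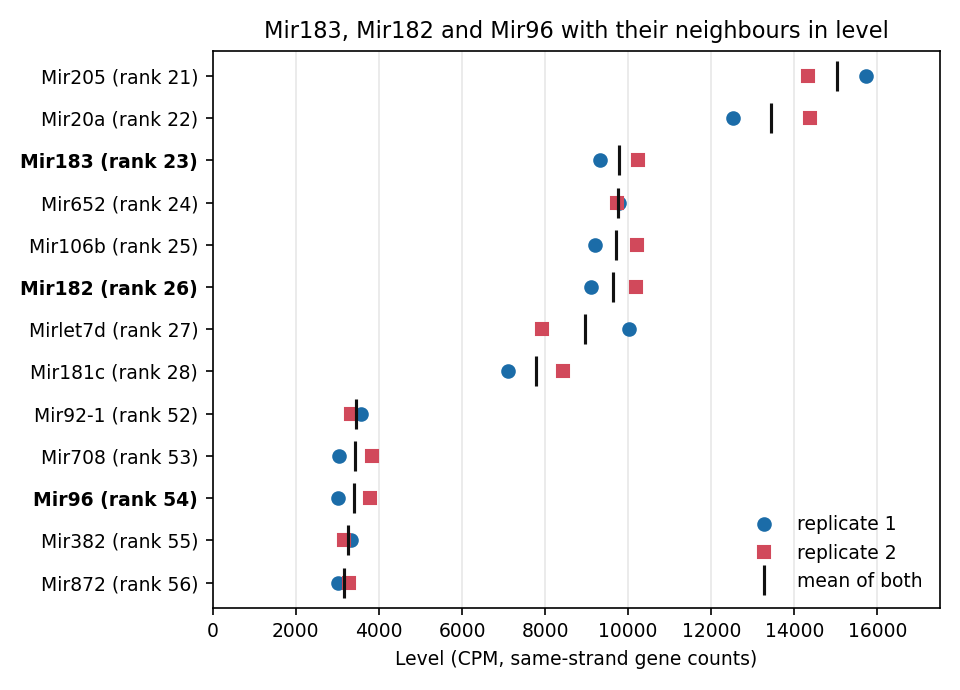
Levels of Mir183, Mir182 and Mir96 (bold) and of the 2 genes next above and below each in the order of mean CPM; circles are replicate 1, squares replicate 2 and bars the mean of both. Mir183 and Mir182 sit between 9106 and 10225 CPM beside Mir652 and Mir106b, and Mir96 between 3026 and 3794 CPM.

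Several neighbours in the order of levels could not be separated from the members. Mir652 (9754 ± 33.6 CPM) and Mir106b (9714 ± 709 CPM), a gene of a cell-proliferation cluster within Mcm7, lay between Mir183 and Mir182, and the means of these 4 genes differed by less than the SD of Mir183 or of Mir182. The next gene above was Mir20a at 13445 ± 1314 CPM, and above it stood the basal epithelial gene Mir205 at 15023 ± 981 CPM; both libraries of each exceeded both libraries of Mir183. Below Mir182 came Mirlet7d at 8969 ± 1473 CPM and Mir181c at 7774 ± 932 CPM. Mirlet7d had 10010 CPM in replicate 1, between the Mir182 values, and 7928 CPM in replicate 2, below both of them.

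Around Mir96, Mir92-1 (3445 ± 163 CPM) and Mir708 (3428 ± 566 CPM) stood just above, and Mir382 (3245 ± 133 CPM) and Mir872 (3148 ± 186 CPM) just below. Each of these 4 had at least 1 library between the values of the Mir96 libraries, so the order at this level was not resolved. By the Euclidean distance of log2 CPM over the 2 libraries, Mir106b was nearest both to Mir183 and to Mir182, at 0.018 from each, and the pair of members lay 0.035 apart. Mir708, from an intron of Tenm4, was nearest to Mir96 at 0.013. With only 2 points per gene this distance says that level and replicate ratio were alike, and nothing more.

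Within the cluster, Mir183 and Mir182 were counted almost equally and Mir96 at about 1 count for every 3 of either. The ratio of Mir183 to Mir182 was 1.02 in replicate 1 (95% Clopper-Pearson interval 1.01 to 1.04) and 1.00 in replicate 2 (0.993 to 1.02), so the excess of Mir183 was beyond counting error only in replicate 1. Their mean ratio was 1.01 ± 0.014 (SD, n = 2). The ratio of Mir183 to Mir96 was 3.08 in replicate 1 (3.02 to 3.14) and 2.69 in replicate 2 (2.65 to 2.74), a mean of 2.89 ± 0.274. The ratio of Mir182 to Mir96 was 3.01 (2.95 to 3.07) and 2.68 (2.64 to 2.73), a mean of 2.85 ± 0.231. The 2 genes that are farthest apart, Mir183 and Mir182, were thus closest in level, while Mir96, which lies 116 bases from Mir183, was the low one.

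Expressed as composition, Mir183 took 43.5% of the counts of the cluster in replicate 1 and 42.3% in replicate 2, Mir182 42.4% and 42.1%, and Mir96 14.1% and 15.7%. The 95% Wilson intervals of the 2 libraries overlapped for Mir182 (42.1 to 42.7 and 41.8 to 42.3) but not for Mir183 (43.2 to 43.8 and 42.0 to 42.5) or Mir96 (13.9 to 14.3 and 15.5 to 15.9). The composition therefore shifted slightly toward Mir96 in replicate 2, by more than counting error. Grouped by bases 2 to 7 of the 5p arm, Mir96 and Mir182 together held 56.5% of the counts in replicate 1 and 57.7% in replicate 2, against 43.5% and 42.3% for Mir183.

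**Figure D2:**
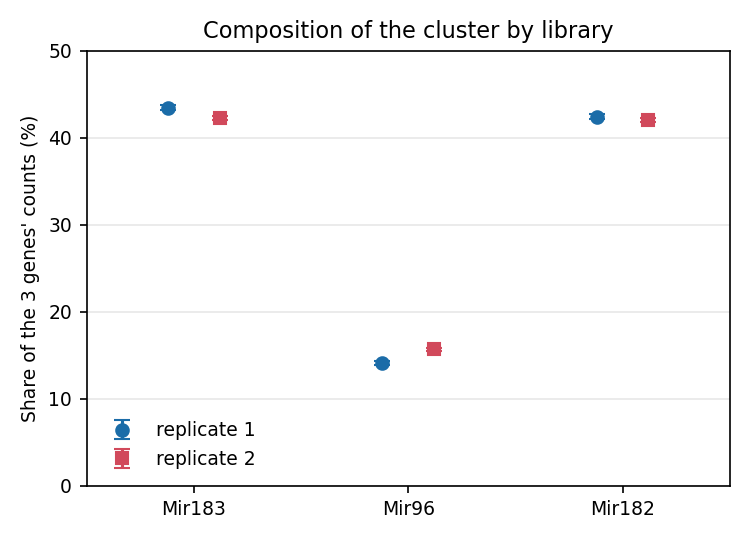
Share of the counts of the 3 genes (percent, y axis) taken by each gene in replicate 1 (circles) and replicate 2 (squares), with 95% Wilson intervals, which are about as tall as the markers. Mir183 and Mir182 each hold between 42.1% and 43.5%, and Mir96 holds 14.1% and 15.7%.

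The core seed of miR-96-5p and miR-182-5p, bases 2 to 7, occurs in 1 further mouse mature miRNA of the RefSeq table, miR-1271-5p of the gene Gm24195 on chromosome 13. It is shown for comparison with the 5p arms above, with its seed in capitals.
mmu-miR-1271-5p: cUUGGCACcugguaagcacuca

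Its whole seed is that of miR-96-5p. Gm24195 had 0 counts in both libraries, which allows up to 0.658 CPM in replicate 1 and 0.520 CPM in replicate 2 (3 counts each). No other mature miRNA of that table carried the core seed of miR-183-5p. By counts of hairpin genes, both cores were thus represented in this tissue by the cluster, without a detectable contribution from Gm24195.

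The 3 genes were closer in level than the members of most other miRNA clusters. Joining tested genes of the same strand that lay no more than 10 kb apart gave 43 clusters, of which 14 had at least 3 tested genes. The highest and lowest member differed 2.87-fold by mean CPM in the Mir183 cluster, the smallest value of the 14, whose median was 92.4-fold. Next came the cluster of Mir302a and Mir302c with 10.1-fold over 4 genes, and the epithelial cluster of Mir429, Mir200b and Mir200a with 17.6-fold over 3 genes. At the other end stood the cluster of Mir322 and Mir450-2 with 3263-fold over 7 genes. The clusters differ in their number of genes, and a longer list of genes spans a wider range. Clusters with a member that shares its mature sequence also hold genes that were undercounted; among the 10 clusters of at least 3 genes without one in the RefSeq table, a choice made after the values were seen, the median was 63.2-fold. Of all 43 clusters, pairs included, 8 had a smaller difference than the Mir183 cluster. These are descriptions of counts, without a test.

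**Figure D3:**
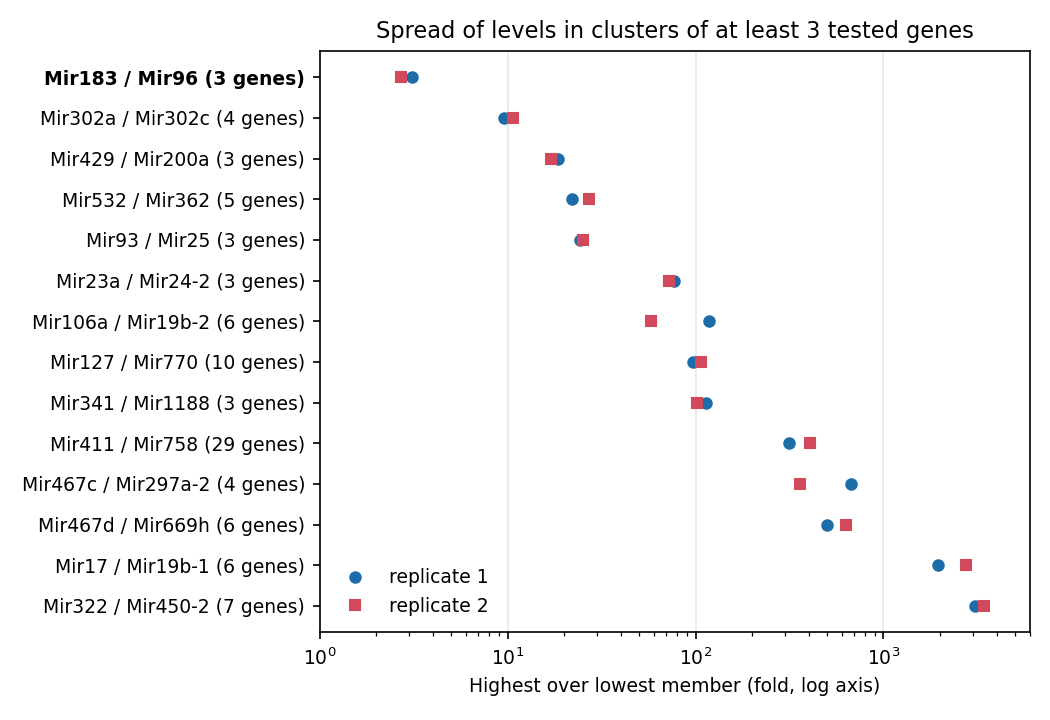
Ratio of the highest to the lowest member (x axis, log scale) in each of the 14 clusters of at least 3 tested genes, named by these 2 members, in replicate 1 (circles) and replicate 2 (squares). The Mir183 cluster, at 3.08 and 2.69, lies lowest, and the cluster of Mir322 and Mir450-2 highest.

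The surroundings on the chromosome did not share this level. Within 1 Mb of the cluster on either side, 5 other miRNA genes were annotated in the files. Mir335, 572 kb away in the imprinted gene Mest and on the other strand, had 48410 and 45218 CPM in replicates 1 and 2. Mir29a, 893 kb away on the same strand, had 73.4 and 94.1 CPM, and its neighbour Mir29b-1 had 1.97 and 2.25 CPM, a gene whose mature sequence is known to be encoded at another locus too. Gm26220 had 0 and 7 counts, and Gm23049 had 0 counts in both libraries.

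All 3 genes were higher in replicate 2 than in replicate 1 by more than counting error, by modest factors. The log2 ratio of replicate 2 to replicate 1 after TMM scaling was 0.13 for Mir183 (adjusted p = 2.82e-46), 0.16 for Mir182 (adjusted p = 1.32e-66) and 0.33 for Mir96 (adjusted p = 3.42e-96), by the two-sided exact binomial test with Benjamini-Hochberg adjustment over the 360 genes. These are 1.10-, 1.12- and 1.25-fold differences. Such calls were common: 55.0% of the 360 genes passed in either direction, and 27.8% passed as higher in replicate 2. With other count minimums the share in either direction was 30.6% of the 683 genes with any count, 36.6% of 552 with at least 1 count in both libraries and 68.7% of 259 with at least 100. Thus a call of all 3 neighbouring genes says little about them. The test sets the 2 libraries against counting error and does not measure biological variation.

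Measured by size over all 360 genes, the replicates differed less than for the median gene at Mir183 and Mir182 and more at Mir96. The median absolute log2 ratio of the 360 genes was 0.24, and 70.3% of them had a larger one than Mir183, 62.8% a larger one than Mir182 and 35.8% a larger one than Mir96. The median level of these genes was only 113 CPM, and counting error widens the ratios of genes with few counts. Genes at the level of the members were not compared apart. These shares therefore do not show that Mir183 and Mir182 agreed better than genes of their own level. The SD over the libraries was 6.50% of the mean for Mir183, 7.87% for Mir182 and 15.9% for Mir96. The common coefficient of variation that edgeR estimated over the 360 genes beyond counting noise was 18.0%, above all 3. Each SD rests on 1 difference, and by log2 ratio Mir96 differed more than the median gene. Standing below 18.0% therefore does not show closer agreement than in other genes. The log2 ratios of the 3 genes spanned 0.19. The median span was 0.64 over the 14 clusters of at least 3 genes, of which 1 had a smaller span, that of Mir429, Mir200b and Mir200a. Over all 43 clusters, most of them pairs, the median was 0.35 and 12 clusters had a smaller span. With gaps of at most 2 kb, where Mir183 and Mir96 alone remain joined, the median over 15 clusters of at least 3 genes was 0.28, and 3 of them had a smaller span than that pair. Over all 47 clusters at that gap, pairs included, the median was 0.27 and 17 had a smaller span. A span widens with the number of genes in a cluster and with counting error at few counts. These values therefore do not show that the 3 genes moved together more closely than clusters of like number and level.

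**Figure D4:**
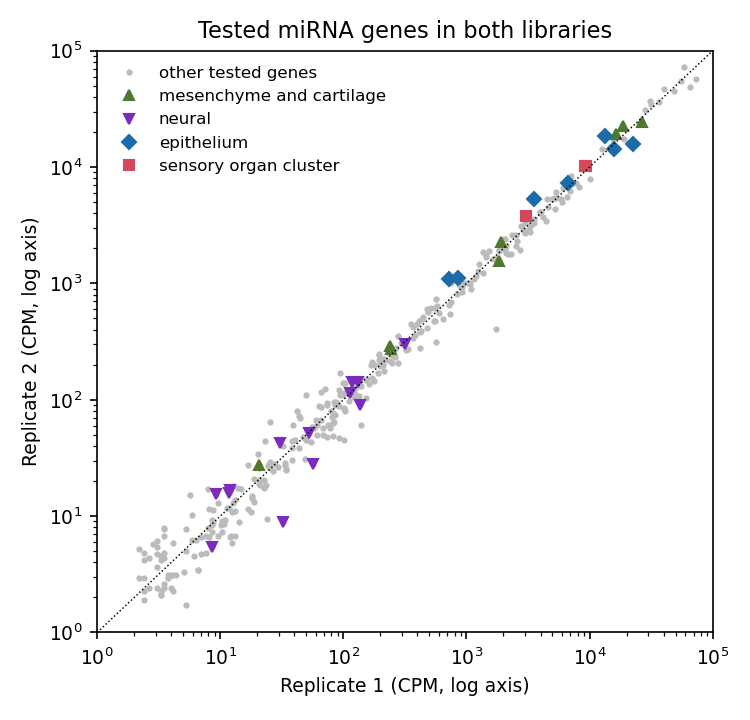
Level of each of the 360 tested genes in replicate 1 (x axis) and replicate 2 (y axis), both in CPM on log scales, with 4 lists coloured and the dotted line marking equal levels. The points of Mir183 and Mir182 nearly coincide, at 9106 to 10225 CPM, and that of Mir96 lies at 3026 and 3794 CPM, all slightly above the line, while the neural genes lie at or below about 315 CPM.

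The libraries come from whole facial tissue, in which more cells of a type and more RNA per cell cannot be told apart, and the counts do not show which epithelium or ganglion held the 3 genes. What the files do give is the level of marker miRNAs for tissues in which the cluster could lie. The 7 epithelial genes, known from surface, oral and nasal epithelium, held 6.35% of counts in replicate 1 and 6.33% in replicate 2, led by Mir203, a gene of epidermal differentiation, at 19190 ± 4787 CPM and by Mir429 at 15915 ± 3532 CPM. The Mir183 cluster had 0.338 counts for each epithelial count in replicate 1 and 0.382 in replicate 2. The epithelial total was thus nearly the same in both libraries while the share of the cluster was 1.13-fold higher in replicate 2. The single epithelial genes moved in both directions. Mir200b, Mir200a, Mir429 and Mir141 of the Mir200 family, which is active in olfactory as well as surface epithelium, had log2 ratios of 0.59, 0.58, 0.46 and 0.39, and Mir200c 0.11. Mir203 and Mir205 had log2 ratios of -0.51 and -0.13. Of the 7 genes, 5 passed the test as higher in replicate 2 and 2 as higher in replicate 1, beside 27.8% and 27.2% of all 360 genes.

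Uniquely placed reads of neuronal marker miRNAs were few beside those of the cluster. The 18 neural genes in the files, of 20 listed, held 0.103% of counts in replicate 1 and 0.098% in replicate 2, and the highest were Mir137 at 310 ± 8.26 CPM and Mir132, an activity-regulated gene, at 137 ± 8.61 CPM. Mir124a-1, Mir124a-3 and Mir9-2, of the main neuronal and neural progenitor families, had 0 counts. At least 12 of the 18 genes share a mature sequence with another gene in the RefSeq table, and the Mir124a genes are known to share theirs. Their reads that match several loci are missing, so the total of the list is an undercount, its zeros set no limit, and its distance from the cluster could not be measured. Of the 13 tested neural genes, 3 passed as higher in replicate 2, 3 as higher in replicate 1 and 7 did not pass, shares near the 27.8% and 27.2% of all 360 genes.

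Markers of the eye, of multiciliated cells and of endocrine cells were also far below the cluster in uniquely placed reads. Genes with a shared mature sequence were not counted in these lists. Their totals may therefore be undercounts, and their distance from the cluster was not measured. The 3 eye genes held 0.016% of counts in replicate 1 and 0.023% in replicate 2, led by Mir204, of pigment epithelium and lens, at 132 ± 53.9 CPM and Mir211 at 49.0 ± 7.84 CPM. Mir204 and Mir184 passed as higher in replicate 2 (log2 ratios 0.86 and 0.60) and Mir211 as higher in replicate 1 (-0.33). The 5 multiciliated genes, markers of airway epithelium, held 0.076% and 0.089%, led by Mir34c at 586 ± 48.6 CPM and Mir449a at 218 ± 34.6 CPM, and all 3 tested ones passed as higher in replicate 2. The 4 endocrine genes held 0.084% and 0.113%, led by Mir375 at 877 ± 187 CPM and Mir7-1 at 63.5 ± 5.50 CPM; 2 passed as higher in replicate 2 and 2 did not pass. The mesenchyme and cartilage list held 6.60% and 7.09%, an undercount because the list holds at least 1 gene with a shared mature sequence. It was led by Mir214 at 25707 ± 1581 CPM and the cartilage gene Mir140 at 20657 ± 2904 CPM. Of its 8 tested genes, 6 passed as higher in replicate 2 and 2 as higher in replicate 1. All these counts stand beside 27.8% and 27.2% of the 360 genes that passed as higher in replicate 2 and in replicate 1, and lists this small were not tested against that share. The median log2 ratio was 0.16 for the cluster, 0.39 for epithelium, 0.03 for neural genes, 0.60 for the eye, 0.33 for multiciliated cells, 0.31 for endocrine cells and 0.25 for mesenchyme and cartilage, against -0.01 over all 360 genes. What part a different share of any of these tissues in the dissections had in the higher level of Mir183, Mir96 and Mir182 in replicate 2 was not tested.

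**Figure D5:**
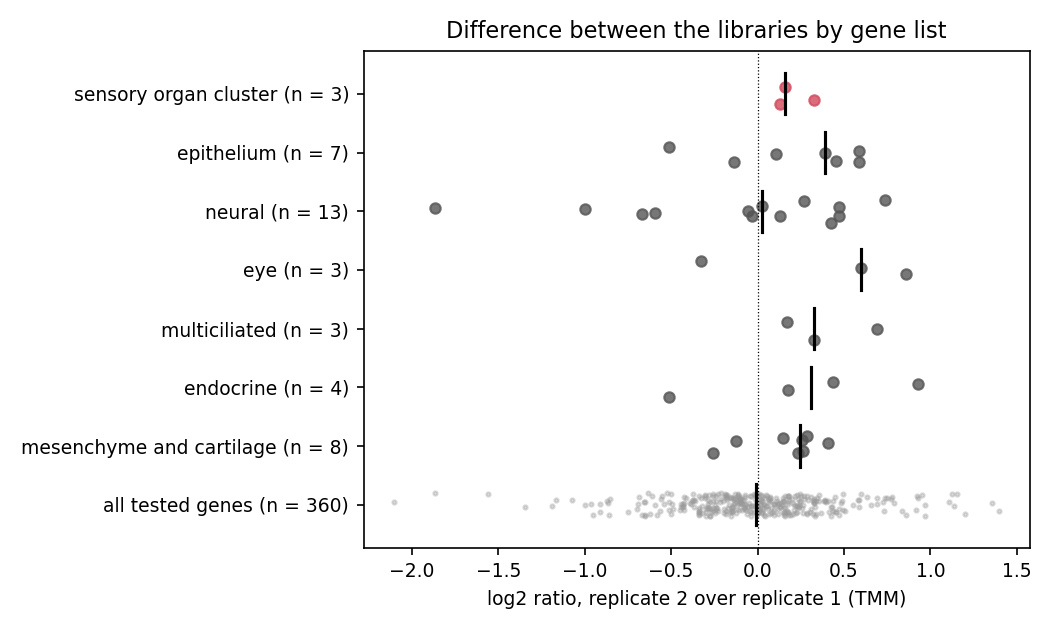
Log2 ratio of replicate 2 to replicate 1 after TMM scaling (x axis) for each tested gene of the 7 lists and for all 360 tested genes, jittered vertically, with black bars at the medians. The 3 genes of the Mir183 cluster lie between 0.13 and 0.33, the epithelial genes between -0.51 and 0.59, and the neural genes between -1.87 and 0.73.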

How the data were processed

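Small RNA of 2 libraries (facial prominence, embryonic day 13.5) was analysed from the deposited whole-number read counts per miRNA gene, which the authors made on mm10 with the M4 release of GENCODE, as the deposited description files state. For the aligner, trimming and counting tool, nothing is given in the sources used here. Each file has 3 columns, read from the layout as counts without regard to strand, on the strand of the gene and on the opposite strand, and 4 lines of read classes that name no gene. The same-strand column was used. Left out of all totals were, in replicates 1 and 2, multiply placed reads at 30.7% and 31.0%, unmapped ones at 20.6% and 20.9% and those outside genes at 4.62% and 4.01%; 44.1% of the reads of each library were gene counts. No column of per-sample values was left unmapped.

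Names and positions came from GENCODE M21 on GRCm38, the same build, for 1894 of 1973 genes. CPM used the same-strand gene total. Genes with at least 10 counts in both libraries were tested between the libraries by a two-sided exact binomial test with TMM library sizes (edgeR 4.0.16, R 4.3.3; SciPy 1.17.1), Benjamini-Hochberg adjusted at 0.05. The test was checked on counts simulated for the 360 genes of this comparison with counting error alone, as the test assumes. There it called 2.5% of 160 unchanged genes, 51.4% of 37 genes changed 1.2-fold and 100% of 52 changed 4-fold. The check does not cover variation between replicates. The log2 ratios carry a prior of 0.5 counts. The quasi-likelihood test of conditions could not be used with 1 group. Hairpins were folded with RNAfold 2.7.2. The named genes were the 3 members, the 2 nearest above and below each in level, the 3 nearest by distance, miRNA genes within 1 Mb, genes with the same core seed and the 2 highest of each list. The members and lists were chosen with earlier results of these data known. Replicates are labelled biological, from separate tissue samples. Alternatives were size factors of DESeq2 1.42.0, the unstranded column, other totals, other count minimums, a pseudocount of 5, other cluster gaps and leaving out each library.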

Additional observations from a re-analysis of the deposited data

Results flagged for a closer look

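Counts on the strand opposite to the members, which none of the comparisons used, exceeded the 3 counts that a count of 0 allows in 3 cases. Mir183 had 6 opposite-strand counts in replicate 1 and 8 in replicate 2, and Mir182 had 9 in replicate 2 and 0 in replicate 1. They came to 0.014% of the same-strand counts of Mir183 in each library and 0.015% of those of Mir182 in replicate 2, against 2.78% and 2.75% over all genes in replicates 1 and 2. Those totals include genes counted almost wholly on the opposite strand, such as Mir299b with 17 same-strand and 6522 opposite-strand counts in replicate 1. The totals therefore do not describe a usual gene. Among abundant genes, Mir106b had 0 opposite-strand counts in both libraries, and Mir203 had 71 and 73. Mir96 had 0 in both libraries.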

How the results depend on the processing

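Of 52 alternative values, 47 were counted as unchanged and 5 moved by more than the spread between replicates. Levels, shares and ratios counted as unchanged when they moved by less than that spread, and log2 ratios when they kept direction and call. The 47 also hold the numbers of genes that differed between the libraries, which have neither a spread nor a direction. The cluster difference at other gaps, which was fixed, is among them too. Leaving out a library is not counted here, since with 2 libraries it always moves a mean by less than 1 SD. Counting reads placed at several loci in the total lowered the mean level to 5750 CPM for Mir183, 2005 CPM for Mir96 and 5672 CPM for Mir182 and the share of the cluster to 1.34%, since the total grew. Without the most abundant gene in the total, Mir183 stood at 10458 CPM. Leaving out either library gave a share of 2.15% or 2.42%. The log2 ratios of the 3 genes kept their direction and call in all 6 settings tried, between 0.13 and 0.16 for Mir183, 0.16 and 0.18 for Mir182 and 0.33 and 0.35 for Mir96, and the number of genes that differed between the libraries lay between 178 of 259 tested (68.7%, at least 100 counts) and 209 of 683 tested (30.6%, any count). With gaps of at most 2 kb, Mir182 left the cluster and Mir183 and Mir96 formed a pair. The 2.87-fold difference was fixed at the gaps tried, because its highest and lowest member, Mir183 and Mir96, lie 116 bases apart. Among all clusters, pairs included, 11 of 47 had a smaller difference at 2 kb and 8 of 47 at 50 kb. With gaps of at most 50 kb the cluster kept its 3 genes, and 0 of 15 clusters of at least 3 genes had a smaller difference. No paired analysis was possible because there is 1 group. Depth does not limit the levels of Mir183, Mir96 and Mir182, but with 2 libraries the SD of each rests on 1 difference.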
